A study of Mus musculus with 88 samples.

Results

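The genes of the mitochondrial respiratory chain were examined in RAW 264.7, a mouse cell line that resembles macrophages, after short exposure to bacterial and cyclic AMP-raising ligands. Members were the genes of the arrays' annotation whose current symbol starts with Nduf, Uqcr or Atp5, or with Cox followed by 4 to 8. Cycs, Cyc1 and the Sdh genes were added. The rule reads symbols and no measured value, but it was set with earlier results of these data known. It gave 72 of the 10518 genes tested, read by 82 probes. They comprised 27 complex I subunits, 5 complex I assembly factors (Ndufaf2, Ndufaf3, Ndufaf4, Ndufaf5 and Ndufaf7), 2 subunits of complex II, 7 genes of complex III, cytochrome c itself (Cycs), 14 genes of complex IV and 16 of complex V. Ndufa4 was counted with complex I by its symbol, although its product is now assigned to complex IV. The annotation called 70 members protein coding and 2 pseudogenes, Atp5k-ps1 and Ndufs5-ps, whose probes may also read the parent gene. None of the 13 subunits encoded by mitochondrial DNA was tested, so all values concern nuclear genes.

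The respiratory chain passes electrons from NADH (complex I) and succinate (complex II) through ubiquinone to complex III, cytochrome c and complex IV, where oxygen is reduced. The protons pumped on the way drive complex V, the ATP synthase. Macrophages activated by lipopolysaccharide (LPS) are known for a turn toward glycolysis, for succinate that accumulates and feeds complex II, and for itaconate, an inhibitor of complex II made by the enzyme Acod1. Many nuclear respiratory genes carry promoter sites for NRF1, for ETS factors such as GABP and for YY1.

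On each array, treated RNA was set against RNA from cells left in medium for an equal time. The treatments were LPS at 100 ng/ml, isoproterenol (ISO, a beta-adrenergic agonist) at 50 nM, prostaglandin E2 (PGE2) at 10 µM, and LPS with either ISO or PGE2, each for 1, 2 and 4 h. The labels of LPS alone add lipid binding protein at 100 pM, and those of the combinations do not mention it. The 88 two-colour arrays formed 44 dye-swap pairs in 15 groups, with 3 pairs (sets) in 14 groups and 2 sets for PGE2 at 1 h. All groups are of the same cell line, and no genotype was compared. Values are given as log2 of treated over medium, each the mean of the sets, and the text gives SD over sets. The deposited table does not state which dye is the numerator. The direction is likely rather than known, and rests on known LPS target genes, whose median lay above 0 on 18 of 18 arrays with LPS alone. A ratio carries no level, so macrophage markers could not be read as a check of the cell type, and signal over background is unknown here.

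Of the 72 members, 61 were found in a RefSeq table of promoters (GRCm38.p6; 250 bases before to 50 after each start). The NRF1 motif, a palindrome of GCATGC with GC on either side, lay in 7 of the 61 (11.5%) against 1.07% of all genes in the table. These were Atp5g2, Atp5k, Cox6a1, Ndufa11, Ndufaf4, Ndufaf5 and Uqcrc1. The ETS motif CCGGAAGT lay in 5 (8.2%) against 4.31%, and the YY1 motif AANATGGC in 14 (23%) against 6.96%, with both strands searched and no overlap between motifs in the sequences shown. At least 1 of the 3 motifs lay in 26 members, and 35 had none in this window. Of the 26 members with a motif, 7 (26.9%) passed the threshold described below in at least 1 group. Of the 35 without, 11 (31.4%) did, against 48.2% of all genes. The shares with and without a motif were not compared by a test and are no result about the motifs. A match is a string of letters, not a measured site. Upstream regions of 3 genes whose values are described below are shown 5′ to 3′ on the gene's strand, each of 250 bases up to the start, with motif letters in capitals. Ndufa11 and Atp5c1 were lower with LPS at 4 h whether LPS was given alone or with ISO or PGE2. The NRF1 match of Ndufa11 begins 60 bases before the start, at chr17:56717512-56717761 on the plus strand. Atp5c1 holds none of the 3 motifs, at chr2:10080511-10080760 on the minus strand. Uqcr11, whose response to LPS differed between times, has an ETS match 66 bases before the start, at chr10:80406822-80407071 on the minus strand.
Ndufa11: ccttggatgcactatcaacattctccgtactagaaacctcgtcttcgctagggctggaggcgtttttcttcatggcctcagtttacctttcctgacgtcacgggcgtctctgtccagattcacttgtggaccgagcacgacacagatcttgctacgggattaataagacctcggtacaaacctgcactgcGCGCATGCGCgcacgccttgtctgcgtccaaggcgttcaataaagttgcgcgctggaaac
Atp5c1: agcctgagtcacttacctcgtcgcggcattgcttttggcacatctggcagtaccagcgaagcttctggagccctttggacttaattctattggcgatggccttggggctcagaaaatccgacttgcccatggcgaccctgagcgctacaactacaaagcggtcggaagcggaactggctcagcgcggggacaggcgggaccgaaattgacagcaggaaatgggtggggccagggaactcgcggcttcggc
Uqcr11: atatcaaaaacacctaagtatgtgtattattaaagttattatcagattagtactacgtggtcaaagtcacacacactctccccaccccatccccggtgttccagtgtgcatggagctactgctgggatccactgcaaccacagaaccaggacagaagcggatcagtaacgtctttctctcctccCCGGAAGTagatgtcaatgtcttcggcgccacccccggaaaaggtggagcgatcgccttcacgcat

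One property of the arrays bears on every count below. The spread of the 72 genes differed between sets. In set 1 the interquartile width of their log2 ratios had a median of 0.20 over 15 groups and ran from 0.077 to 0.52. It had a median of 0.096 in set 2 and 0.11 in set 3. In 7 of the 15 set 1 pairs the width of the members exceeded that of all genes, which occurred in 0 pairs of set 2 and 0 of set 3. Member values beyond 0.5 in size numbered 35 of 1080 in set 1, 7 of 1080 in set 2 and 5 of 1008 in set 3. What set 1 shared beyond its number is not given in the labels, and its part in the counts is given below as counts without it. The arrays of a dye-swap pair were compared by correlation across genes, as a description over genes that share arrays. In the 27 pairs with LPS the median was −0.066 for the members, against 0.61 for all genes. The members' correlation was uneven, and in the set 1 pairs with LPS it ran from −0.45 (LPS, 2 h) to 0.74 (LPS, 1 h). In the 17 pairs without LPS the medians were −0.24 for the members and −0.0044 for all genes.

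**Figure D1:**
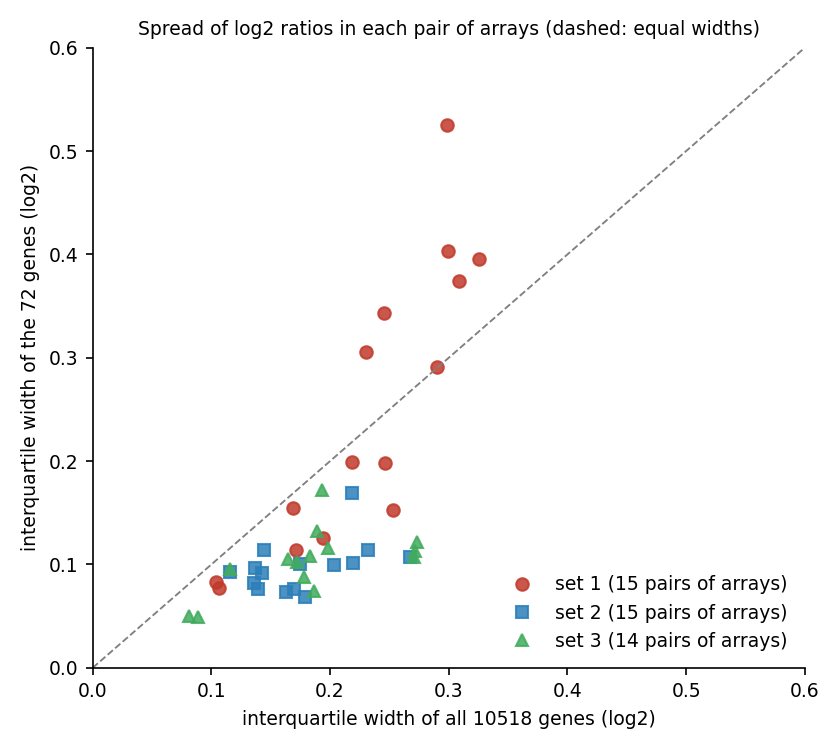
Interquartile width of log2 ratios in each of the 44 pairs of arrays, for the 72 respiratory chain genes (vertical axis, log2) and for all 10518 genes (horizontal axis, log2). Circles are set 1, squares set 2 and triangles set 3; 7 of the 15 set 1 pairs lie above the dashed line of equal widths, and no pair of set 2 or set 3 does.

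The chain genes as a group moved little under any treatment. No member was more than 1.34-fold from medium in the mean of any of the 15 groups, and the largest value belonged to Atp5j2 after 1 h of LPS (−0.42). Of all genes tested, 15.2% exceeded 1.5-fold and 6.31% exceeded 2-fold in at least 1 group. The median over genes of the largest absolute log2 ratio was 0.19 for members and 0.24 for all genes, and 3 members (4.17%) passed 0.4 against 25.9% of all genes. A share of 27.8% of the members, 20 of 72, passed limma's threshold (adjusted p under 0.05) in at least 1 group, against 48.2% of all genes, and 52 members passed in none. Where listed zeros were treated as missing, 1 or more members exceeded 1.5-fold in 3 groups, with largest folds of 1.55 for LPS at 1 h, 1.72 for PGE2 at 2 h and 1.74 for ISO at 4 h.

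**Figure D2:**
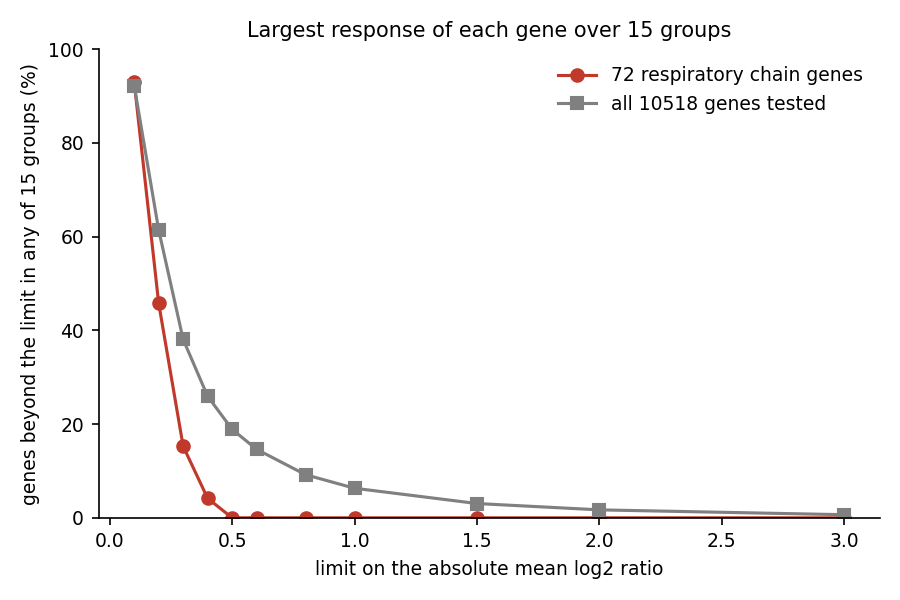
Percentage of genes (vertical axis) whose mean log2 ratio exceeded a given absolute limit (horizontal axis, log2) in any of the 15 groups. Circles are the 72 respiratory chain genes, which reach 0% at a limit of 0.5, and squares are all 10518 genes, of which 18.9% lie beyond that limit.

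After 4 h of LPS, 6 of the 72 members fell and 0 rose (limma, adjusted p under 0.05), or 8.33%, while 30.7% of all genes passed and 16.4% of all genes passed as lower. At an unadjusted p under 0.05 there were 8 members, and the share of all genes at that limit is not given here. The median member stood at −0.029 and 48 of 72 lay below 0, with all genes at a median of 0. In set 2 the members' median was −0.12 on the array with treated RNA in Cy5 and 0.11 with Cy3. The members ran from −0.31 to 0.16. For 71 of the 72 the 95% interval of the mean lay within 1.5-fold of medium, against 81.1% of all genes. Without set 1, 0 members passed, while 25.8% of all genes still did. Some of the 6 calls needed other sets too. Ndufa11 did not pass without set 2 or without set 3, and Ndufa8 and Ndufaf7 did not without set 3. The counts were 5 without set 2 and 3 without set 3, and 2 when arrays were scaled to the same median absolute value. With only the LPS 4 h sets in the fit 1 member passed, and 13.9% of all genes. On arrays with treated RNA in Cy3 alone, 4 members passed as higher and 5 as lower. Where no share of all genes stands beside such a count, the count is no result about the members. None of the 6 passed in both dye orientations. Cox6a2, Ndufaf7 and Ndufb2 did not pass on Cy5 arrays alone, and Ndufa11 and Ndufa8 did not on Cy3 arrays alone. Atp5c1 passed on neither.

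Of the 27 complex I subunits, 3 fell after 4 h of LPS, all accessory subunits, which surround the catalytic core. Ndufa11, a membrane-arm subunit, had log2 ratios of −0.24, −0.15 and −0.12 in sets 1 to 3 (mean −0.17 ± 0.067, SD, n = 3, adjusted p = 0.0336 in limma). Ndufb2 had −0.32, −0.10 and −0.052 (mean −0.16 ± 0.14, SD, n = 3, adjusted p = 0.0115). Ndufa8, which faces the intermembrane space, had −0.16, −0.068 and −0.13 (mean −0.12 ± 0.047, SD, n = 3, adjusted p = 0.00911). All sets of the 3 genes lay below 0, with set 1 the lowest in each. The 27 subunits had a median of −0.051. The lowest mean was that of Ndufb3, another accessory subunit, at −0.23 (sets −0.42, −0.047 and −0.21, adjusted p = 0.092), which did not pass, and the highest that of Ndufs4, at 0.14 (adjusted p = 0.346).

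Among the 5 assembly factors, Ndufaf7, a methyltransferase that acts on a core subunit during assembly, fell. Its sets were −0.36, −0.21 and −0.36 (mean −0.31 ± 0.088, SD, n = 3, adjusted p = 0.0266 in limma), the lowest mean of all 72 members. The arrays of set 1 disagreed in sign, at 0.10 with treated RNA in Cy5 and −0.81 with Cy3. Ndufaf7 did not pass in 7 of 14 alternative runs, among them that on Cy5 arrays alone. The highest of the 5 was Ndufaf5 at 0.11 (adjusted p = 0.249). In complex II, which oxidises succinate, Sdhb, the iron-sulfur subunit, had 0.0020, −0.024 and −0.066 (mean −0.029 ± 0.035, SD, n = 3, adjusted p = 0.793) and Sdhc, a membrane anchor, had 0.088, −0.047 and 0.040 (mean 0.027 ± 0.069, SD, n = 3, adjusted p = 0.99). Neither gene kept 1 sign over the sets.

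The 7 complex III genes lay between −0.082 (Uqcrq, a small subunit, adjusted p = 0.141) and 0.056 (Cyc1, the cytochrome c1 subunit, adjusted p = 0.689), and none passed. Cycs, the mobile carrier between complexes III and IV and a trigger of apoptosis once released, had 0.16, 0.23 and 0.085 (mean 0.16 ± 0.071, SD, n = 3, adjusted p = 0.101). Its mean was the highest of the 72 members, and it did not pass. Of the 14 complex IV genes, only Cox6a2, the isoform of subunit VIa known from heart and skeletal muscle, fell. Its sets of −0.23, −0.17 and −0.20 stood close together (mean −0.20 ± 0.029, SD, n = 3, adjusted p = 0.00969 in limma). The highest gene of the complex was Cox7b at 0.040. Of the 16 complex V genes, Atp5c1, the gamma subunit of the rotating stalk, fell, with sets at −0.46, −0.13 and −0.17 (mean −0.25 ± 0.18, SD, n = 3, adjusted p = 0.0185), and the highest was Atp5pb, a subunit of the outer stalk, at 0.079. Both probes of Atp5c1 were low, at −0.27 and −0.23.

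**Figure D3:**
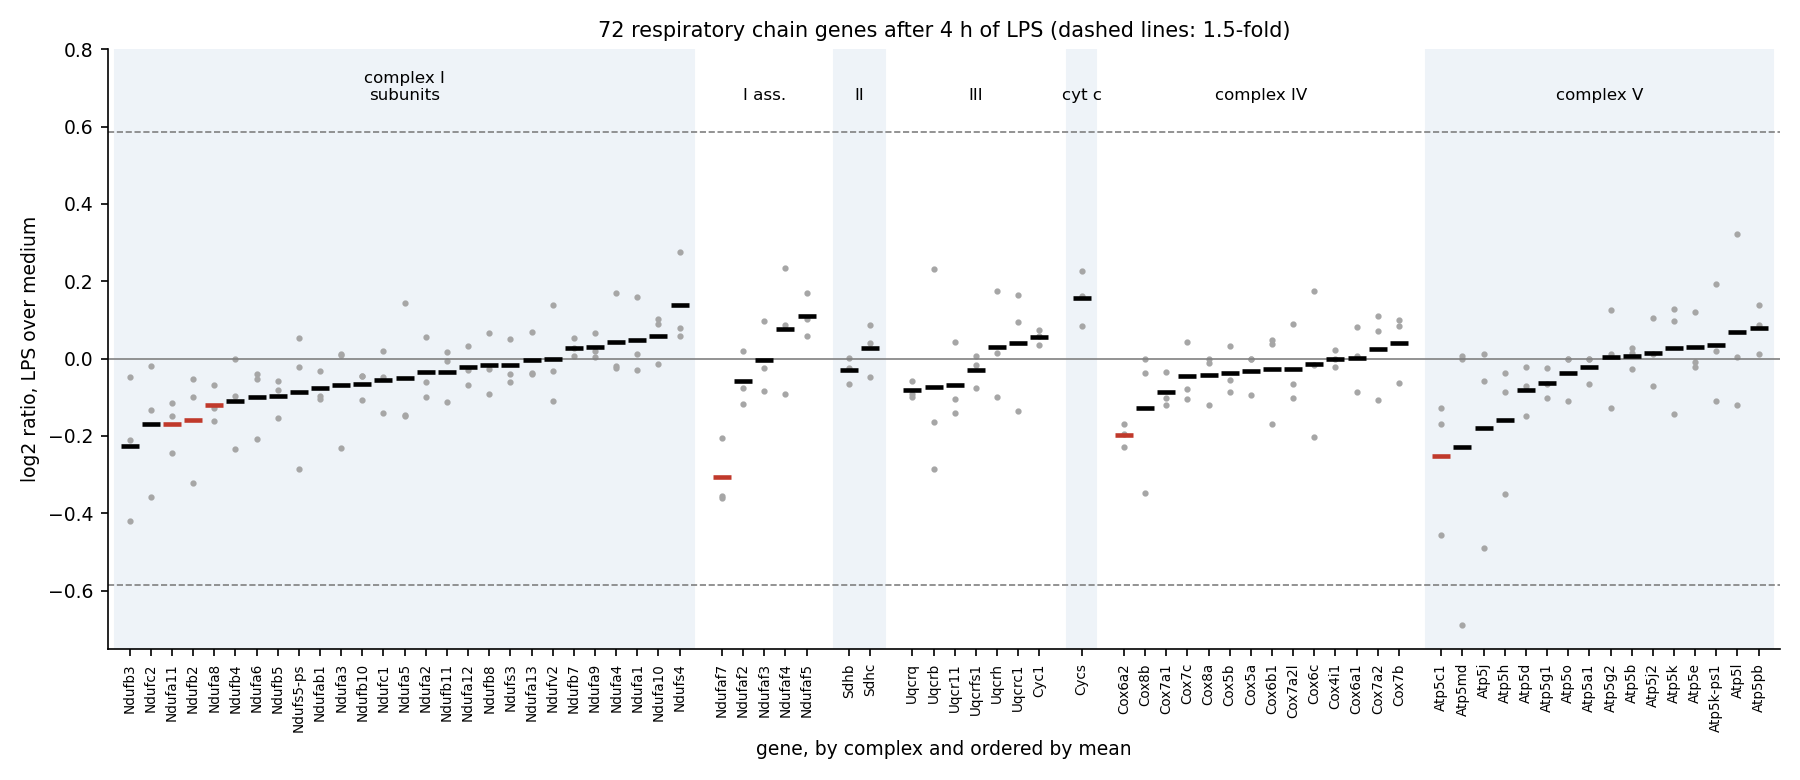
Log2 ratio of LPS over medium after 4 h (vertical axis) for each of the 72 genes (horizontal axis), grouped by complex and ordered by mean. Bars are means of 3 sets (red where the gene passed at adjusted p under 0.05 in limma), grey points are the sets and dashed lines mark 1.5-fold; the 6 red bars, from Ndufaf7 at −0.31 to Ndufa8 at −0.12, are all below 0.

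At 1 h of LPS, 4 members fell and 1 rose, or 6.94%, against 9.48% of all genes (4.84% lower and 4.64% higher). Atp5j2, a subunit of the membrane part of complex V, had −1.13, −0.073 and −0.053 in sets 1 to 3 (mean −0.42 ± 0.62, SD, n = 3, adjusted p = 0.00877 in limma). Ndufaf7 had −0.92, −0.098 and −0.099 (mean −0.37, adjusted p = 0.023), and Ndufa4 had −0.82, −0.047 and −0.11 (mean −0.33, adjusted p = 0.0194). Ndufa9, a complex I subunit, passed at −0.41 (adjusted p = 0.0201) with sets at −1.26, 0.036 and 0.0097, so that its sign rests on 1 set. In all of these set 1 stood far below the other sets, and both of its arrays were low. For Atp5j2 the array with treated RNA in Cy5 gave −0.91 and that with Cy3 gave −1.35. For Ndufa4 the arrays gave −0.75 and −0.89. In that pair 14 members lay below −0.5 and 1 above 0.5, which is 20.8% of members against 13.1% of all genes. Without set 1, 0 members passed at 1 h of LPS and 3.74% of all genes did; without set 2 the count was 14 and without set 3 it was 12. With only these sets in the fit it was 0, and with single arrays 8. Except for the run without set 1, the share of all genes in these runs is not given here. The gene that rose was Uqcr11, a small subunit of complex III, with sets at 0.32, 0.15 and 0.12 (mean 0.20 ± 0.11, SD, n = 3, adjusted p = 0.0181), all above 0.

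After 2 h of LPS, 2 members fell, or 2.78%, and 15.9% of all genes passed, with 7.01% of all genes lower. Ndufa8 had −0.025, −0.19 and −0.12 (mean −0.11 ± 0.083, SD, n = 3, adjusted p = 0.029 in limma). Ndufaf7 had −0.50, −0.25 and −0.24 (mean −0.33 ± 0.15, SD, n = 3, adjusted p = 0.0316). Both genes were below 0 in every set. The count was 1 without set 1 (Ndufa8), 1 without set 2 (neither of the genes named here) and 0 without set 3. Ndufaf7 thus did not pass when any set was left out. With only these sets in the fit the count was 0. The share of all genes in these runs is not given here.

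The response to LPS differed between 1, 2 and 4 h for 3 members (F test over the 3 times in limma), against 18.5% of all genes. Cycs had means of −0.20, −0.0086 and 0.16 (adjusted p = 0.0339), with the 1 h mean drawn down by set 1 at −0.52 while the other sets stood at −0.040 and −0.037. Uqcr11 had 0.20, 0.0065 and −0.068 (adjusted p = 0.0326), and Ndufa8 had 0.048, −0.11 and −0.12 (adjusted p = 0.0207). Cycs thus ended above its first value, and the other genes ended below theirs. Without set 1 none of the 3 passed, at adjusted p of 0.264, 0.403 and 0.186 in the order named. The count was 0 with arrays scaled and 6 with single arrays. With LPS groups alone in the fit it was 1, and that gene was none of the 3 named here. The share of all genes in these runs is not given here.

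With ISO added to LPS for 4 h, 5 members fell and 0 rose, or 6.94%, against 30.0% of all genes and 15.6% as lower. Ndufb3 had −0.62, −0.12 and −0.27 (mean −0.34 ± 0.26, SD, n = 3, adjusted p = 0.00916 in limma). Ndufaf7 had −0.39, −0.22 and −0.32 (mean −0.31, adjusted p = 0.0252), Atp5c1 a mean of −0.22 (adjusted p = 0.0376) and Ndufa11 a mean of −0.19 (adjusted p = 0.0169). Every set of these 4 genes was below 0. Cox7a2l, which helps join complexes III and IV into supercomplexes, passed at −0.18 (adjusted p = 0.0232) with sets at −0.31, 0.045 and −0.28, so that its sets disagreed in sign. Without set 1 the count was 0, without set 2 it was 8 and without set 3 it was 3. It was 1 with arrays scaled and 0 with only these sets in the fit. On arrays with treated RNA in Cy5 it was 13 (4 higher, 9 lower), and with Cy3 it was 5 (4 higher, 1 lower). The share of all genes in these runs is not given here, so the counts are no result about the members.

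With PGE2 added to LPS for 4 h, 13 members fell and 0 rose, or 18.1%, against 31.6% of all genes and 16.5% as lower. As lower genes, the members' share was thus near the share of all genes. The median member stood at −0.068 and 52 of 72 lay below 0, with the share of all genes below 0 not given here. In set 2 the members' median was −0.23 on the array with treated RNA in Cy5 and 0.060 with Cy3. Complex IV contributed 5 of its 14 genes, complex I 5 of 27 subunits, complex III 2 of 7 and complex V 1 of 16. In complex I, Ndufa11 had −0.43, −0.23 and −0.26 (mean −0.31 ± 0.11, SD, n = 3, adjusted p = 0.000129 in limma), Ndufb3 a mean of −0.36 (adjusted p = 0.00506), Ndufa6 of −0.24 (adjusted p = 0.0135), Ndufb2 of −0.18 (adjusted p = 0.00363) and Ndufb10 of −0.14 (adjusted p = 0.0292). Ndufa11 carried the smallest adjusted p of these. Ndufb10 had nearly equal sets at −0.13, −0.13 and −0.15, whereas Ndufb3 had −0.61, −0.22 and −0.26. Even so, Ndufb10 did not pass when any 1 of the sets was left out. Of these runs, Ndufb3 did not pass only in that without set 1. Neither gene passed on arrays with treated RNA in Cy3 alone.

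In complex IV the 5 genes were Cox6a2 and Cox7a1, muscle-type isoforms, and Cox8a, Cox7c and Cox5a, subunits found in most tissues. Cox6a2 had −0.32, −0.19 and −0.19 (mean −0.23 ± 0.072, SD, n = 3, adjusted p = 0.00241 in limma). Cox7a1 had a mean of −0.27 (adjusted p = 0.0235), and its probes gave −0.39 and −0.16, of which the first varied with an SD of 0.34. Cox8a had −0.46, −0.072 and −0.071 (mean −0.20, adjusted p = 0.015) and Cox7c a mean of −0.19 (adjusted p = 0.0474). Set 1 was again the lowest for these genes. Cox5a, at −0.10 (adjusted p = 0.0203), was measured on 47.7% of arrays, its zeros elsewhere entering the fit as 0. In complex III, Uqcr11 had a mean of −0.17 (adjusted p = 0.0159) and Uqcrq one of −0.13 with sets at −0.14, −0.11 and −0.13 (adjusted p = 0.0167). The probes of Uqcrq gave −0.055 and −0.20. Uqcrq did not pass in 8 of 14 alternative runs, among them each that left out 1 set and each dye orientation alone. In complex V, Atp5c1 had −0.55, −0.12 and −0.11 (mean −0.26, adjusted p = 0.0148). Without set 1 the count for LPS with PGE2 at 4 h was 3, of which 2 were among the 13 (Ndufa11 and Cox5a), and with arrays scaled it was 4. It was 2 with only these sets in the fit. On arrays with treated RNA in Cy5 it was 24 (4 higher, 20 lower), and with Cy3 it was 6 (2 higher, 4 lower). The share of all genes in these runs is not given here, so the counts are no result about the members.

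**Figure D4:**
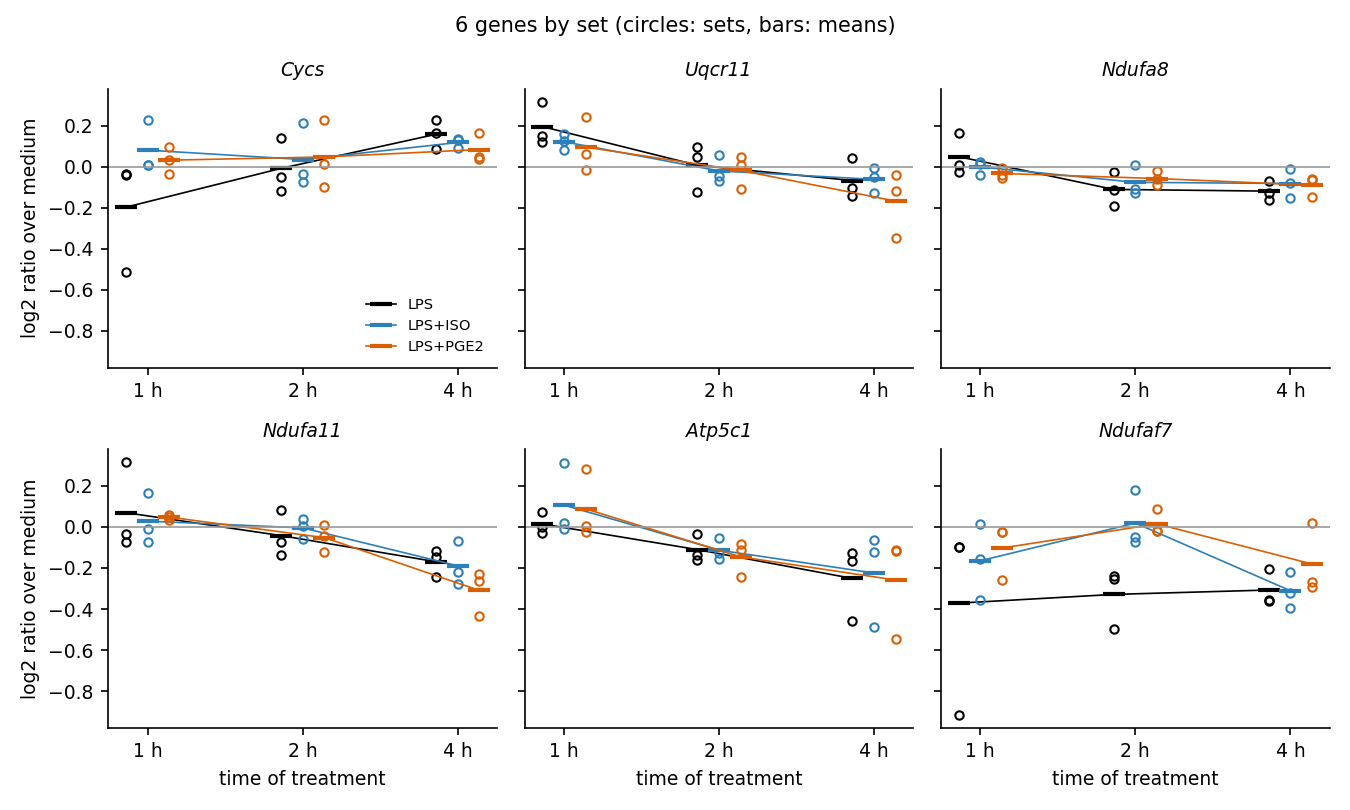
Log2 ratio over medium (vertical axis) at 1, 2 and 4 h (horizontal axis, not to scale) for 6 genes, with LPS in black, LPS with ISO in blue and LPS with PGE2 in orange. Circles are sets and bars are means; Ndufa11 and Atp5c1 end below 0 in all sets of the 3 treatments at 4 h, and single circles at 1 h, as for Cycs and Ndufaf7 with LPS, are those of set 1.

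Neither added ligand moved a chain gene past the threshold relative to LPS alone. In each of the 6 comparisons of a combination with LPS, 0 members passed in limma, against 0.0190%, 0.00% and 0.0951% of all genes for ISO at 1, 2 and 4 h and 0.00%, 0.00% and 0.0285% for PGE2. At an unadjusted p under 0.05 there were 16, 1 and 0 members for ISO and 12, 2 and 0 for PGE2. The share of all genes at that limit is not given here, so these counts are no result about the members either. At 1 h they include Atp5j2 and Ndufa9, whose LPS means (−0.42 and −0.41) were drawn down by set 1. With so few calls among all genes, a count of 0 is no result about the members. The difference for Ndufa11 between LPS with PGE2 and LPS alone at 4 h was −0.14 (95% interval −0.32 to 0.037), and that for Atp5c1 was −0.0080 (−0.25 to 0.23). At 4 h the interval of the difference lay within 1.5-fold for 71 of 72 members with either ligand. The combinations and LPS alone were each set against medium of the same time, and the labels do not say whether that RNA was shared.

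The earlier times of the combinations gave no calls. With LPS and ISO, 0 members passed in limma at 1 h (7.43% of all genes) and at 2 h (13.9%), with 8 and 1 members at an unadjusted p under 0.05. With LPS and PGE2, 0 passed at 1 h (7.68%) and at 2 h (13.3%), with 5 and 0 unadjusted. The unadjusted counts stand without the share of all genes at that limit. Ndufaf7, lower at all 3 times of LPS alone, therefore did not pass in the combinations at 1 or 2 h. Whether it differed from LPS alone was tested in the comparisons above, where it did not pass either.

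ISO alone raised 1 member at 1 h, or 1.39%, against 0.903% of all genes (0.713% higher). This was Ndufb8, a complex I accessory subunit, with 0.28, 0.29 and 0.17 (mean 0.25 ± 0.063, SD, n = 3, adjusted p = 0.0316 in limma), and it did not pass when any 1 of the 3 sets was left out. At 2 h and 4 h of ISO, 0 members passed (limma; 4 and 3 unadjusted), against 1.71% and 3.36% of all genes. PGE2 alone gave 0 members past limma's threshold at 1, 2 and 4 h (7, 0 and 6 unadjusted), against 0.323%, 0.456% and 1.14% of all genes. These unadjusted counts, too, lack the share of all genes at that limit. After 4 h of PGE2, 60 of 72 members lay below 0 with a median of −0.063, none of them past the threshold. The share of all genes below 0 is not given here, so this count is no result about the members. In set 2 their median was −0.18 on the array with treated RNA in Cy5 and 0.075 with Cy3. In sets 1 and 3 it was below 0 on both arrays. In each of the 9 groups with LPS the share of members called was below that of all genes, counted in either direction.

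**Figure D5:**
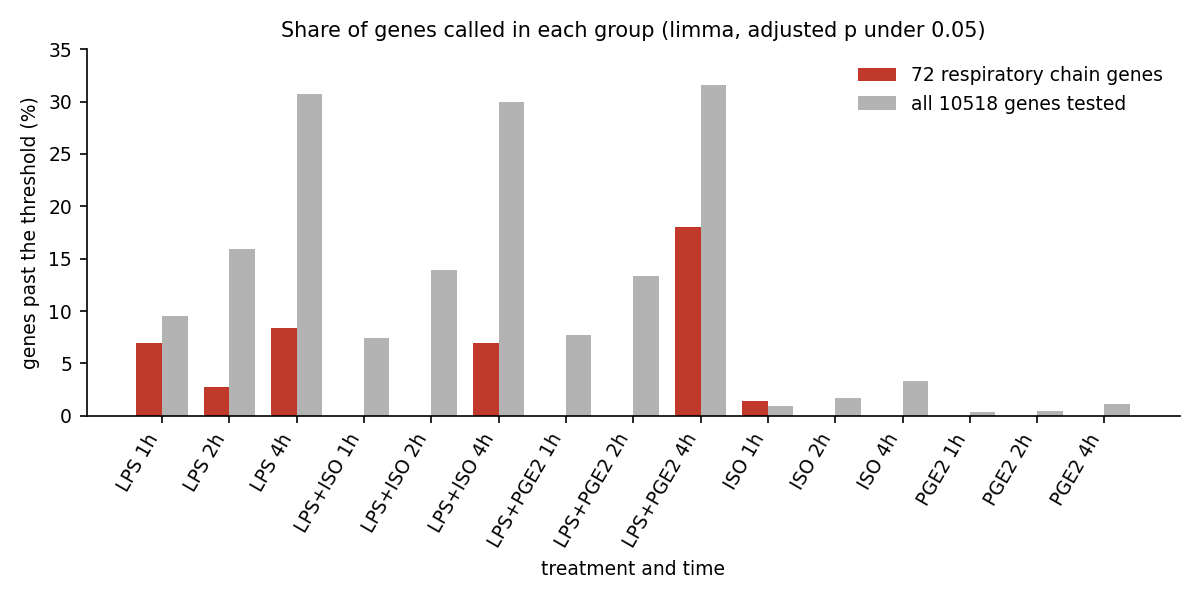
Percentage of genes past the threshold (vertical axis; limma, adjusted p under 0.05) in each of the 15 groups (horizontal axis), for the 72 respiratory chain genes (red) and all 10518 genes (grey). The members have calls in 6 groups, the most, 18.1%, for LPS with PGE2 at 4 h, where all genes stand at 31.6%.

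Complex II and cytochrome c were followed in all 15 groups. Sdhb ran from −0.097 (LPS with ISO, 1 h) to 0.14 (ISO, 2 h) and Sdhc from −0.22 (PGE2, 1 h) to 0.093 (LPS with ISO, 4 h). Cycs ran from −0.20 (LPS, 1 h) to 0.16 (LPS, 4 h). None of the 3 passed limma's threshold in any group. In each order, neighbouring means lay closer together than the larger of their SDs over sets. At 4 h Cycs was above 0 in every set of LPS, LPS with ISO (mean 0.12) and LPS with PGE2 (mean 0.083), and below 0 in every set of PGE2 alone (mean −0.084, adjusted p = 0.832).

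Genes that serve the chain without belonging to it were counted after 4 h of LPS, where 30.7% of all genes passed. Unlike the members, the genes named here and in the paragraphs on further lists were not followed through the alternative runs. Whether their calls hold without a set or in each dye orientation was not tested. Of 17 further assembly factors, 3 rose and 4 fell. Cox17, a copper chaperone for complex IV, rose (0.52 ± 0.10, SD, n = 3, adjusted p = 3.06e-08 in limma), as did Ttc19, an assembly factor of complex III (0.41, adjusted p = 0.00046), and Hccs, which attaches haem to cytochrome c (0.30, adjusted p = 0.0391). Bcs1l, which inserts the iron-sulfur protein of complex III, fell (−0.47 ± 0.11, SD, n = 3, adjusted p = 4.15e-05). Of 13 regulators of mitochondrial gene expression, 1 rose and 3 fell. The transcription factor gene Myc stood at 3.48, Yy1 at −0.48 (adjusted p = 0.00411), Tfam, which packages and transcribes mitochondrial DNA, at −0.30 (adjusted p = 0.000303), and Polg, the mitochondrial DNA polymerase, at −0.24 (adjusted p = 0.0124).

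Of 16 genes of the TCA cycle and pyruvate entry, 3 fell and 0 rose. Idh3a, a subunit of isocitrate dehydrogenase, stood at −0.32, Dlat, of the pyruvate dehydrogenase complex, at −0.23, and the fumarase gene Fh1 at −0.13. Of 8 genes of itaconate and succinate handling, 2 fell, namely the dicarboxylate carrier Slc25a10 (−0.49 ± 0.046, SD, n = 3, adjusted p = 9.42e-06 in limma) and the cytosolic aconitase Aco1 (−0.18). Acod1 was listed at 0 on all arrays of LPS at 4 h, so no value can be given there. Of 9 other mitochondrial enzymes and relatives of the chain, Sqor, which feeds electrons from sulfide into ubiquinone, rose (0.43), while Dhodh (−0.53) and Etfdh (−0.26), which also reduce ubiquinone, and Higd2a (−0.45) fell.

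Of 14 mitochondrial antioxidant and carrier genes, 2 rose and 2 fell. Sod2, the superoxide dismutase of the matrix, rose 2.52-fold (1.33 ± 0.26, SD, n = 3, adjusted p = 5.86e-12 in limma) and Txnrd2 stood at 0.18, whereas the glutathione peroxidase genes Gpx1 (−0.38) and Gpx4 (−0.31) fell. Of 62 mitochondrial ribosomal protein genes, 7 rose and 10 fell, with Mrpl52 at 1.08 and Mrps6 at −0.55, Mrpl18 at −0.48 and Mrpl12 at −0.37. Of 18 import genes, 3 rose, namely Timm17a (0.21), Timm21 (0.18) and Timm23 (0.18). Of 22 markers of other cell types, 1 passed, Mbp at −0.73, and of the 20 known LPS targets, 18 rose. Apart from the LPS targets, the medians of these lists ran from −0.13 to 0.023, with all genes at 0. Thus Sod2, Mrpl52 and Myc, each beyond 2-fold, lay outside the range of the 72 chain genes.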

How the data were processed

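The authors deposited 1 table of log2 ratios per probe and array. Their image analysis, normalization, centring and numerator dye were not given in the sources used here. Log2 was inferred as the scale, since the largest value, 6.64, is log2 of 100. Each column has a median of 0, and 10.9 to 45.7% of probes per array are exactly 0, which draws means toward 0. Groups, sets and dyes came from the labels. Ratios were turned to treated over medium, and the 2 arrays of a pair were averaged to 1 replicate. Separate cultures are not named in the labels, and p-values then reflect only how sets vary, possibly for technical reasons. Precision is limited by the number of arrays.

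The 13260 probes with 1 gene and a value other than 0 on any array were averaged to 10518 genes, with symbols updated through Entrez identifiers. Of the 72 members, 56 were measured (other than 0) on every array and 2, Atp5a1 and Cox5a, on 47.7%. In R 4.3.3, limma 3.58.1 with statmod 1.5.0 fitted 44 pair means in 1 model with 15 group means (29 residual degrees of freedom). Adjusted p is Benjamini-Hochberg over all genes, two-sided, with a threshold of 0.05. The fit was also run on simulated data whose residuals were drawn independently for each gene. These held no set or dye differences and no block of listed zeros, so that run cannot speak to such features.

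Members and gene lists were chosen with earlier results of these data known, and no list count is independent support. Genes were named by rule: for LPS at 4 h and the combinations at 4 h up to 25 members past the threshold with 1 sign in all sets, for other comparisons up to 5, the highest and lowest of each complex after LPS at 4 h, complex II and cytochrome c, and up to 4 genes per list. Ndufa9, Cox7a2l, Acod1 and the genes with an NRF1 match were named after their values were seen. The alternatives covered zeros as missing, centring, scaling, a filter on genes measured on at least 50% of arrays, the choice of probe, robust eBayes, single arrays, the replicate block, only the compared groups in the fit, each dye orientation and leaving out each set. Same-numbered sets had deviations correlated at a median of 0.092, with 148 of 301 comparisons over 0.1, against −0.044 and 120 of 602 for different-numbered sets. Not every same-numbered comparison was over 0.1, so by the rule used the numbers were not taken to pair samples, and the block was run as an alternative.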

Additional observations from a re-analysis of the deposited data

Results flagged for a closer look

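The response to LPS differed between 1, 2 and 4 h for 3 respiratory chain genes by limma's F test. The adjusted p was 0.0339 for Cycs, 0.0207 for Ndufa8 and 0.0326 for Uqcr11. Cycs had mean log2 ratios of −0.20, −0.0086 and 0.16 at the 3 times, Ndufa8 of 0.048, −0.11 and −0.12, and Uqcr11 of 0.20, 0.0065 and −0.068. Without set 1 the adjusted p was 0.264 for Cycs, 0.186 for Ndufa8 and 0.403 for Uqcr11. Groups hold 2 or 3 sets, so single sets were not tested as outliers.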

How the results depend on the processing

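Counts are of members past the threshold. The share of all genes in each run is not given in this section, so no count here is a result about the members. With single arrays and the pair as a random block they were 8 for LPS at 1 h, 1 for LPS with PGE2 at 1 h, 1 for LPS at 2 h, 1 for ISO at 4 h and 6 between times. Fewer samples estimate the spread when only the compared groups are in the fit. The counts were then 0 for LPS at 1 h, 0 for ISO at 1 h and 0 for LPS at 2 h. At 4 h they were 1 for LPS, 0 for LPS with ISO and 2 for LPS with PGE2. Between times the count was 1, and that gene was none of Cycs, Uqcr11 and Ndufa8. With zeros as missing the counts were 0 for ISO at 1 h and 1 for LPS at 2 h. With another centring the counts included 1 for LPS with ISO at 1 h. With arrays scaled they were 2 for ISO at 1 h, 1 for PGE2 at 1 h, 1 for LPS with ISO at 1 h, 1 for ISO at 2 h, 2 for LPS at 4 h, 1 for ISO at 4 h, 2 for PGE2 at 4 h, 1 for LPS with ISO at 4 h, 4 for LPS with PGE2 at 4 h and 0 between times. With treated RNA in Cy5 only they were 1 for PGE2 at 1 h, 3 for LPS with ISO at 1 h, 2 for LPS with PGE2 at 1 h, 1 for LPS at 2 h, 1 for ISO at 2 h, 3 for LPS with ISO at 2 h, 6 for ISO at 4 h, 3 for PGE2 at 4 h, 13 for LPS with ISO at 4 h and 24 for LPS with PGE2 at 4 h. With treated RNA in Cy3 only they were 0 for ISO at 1 h, 1 for LPS at 2 h, 2 for PGE2 at 2 h, 1 for ISO at 4 h and 6 for LPS with PGE2 at 4 h. For LPS at 4 h the 2 dye settings gave 4 (0 higher) and 9 (4 higher). No member called in the main fit, in any of the 15 groups, passed in both dye settings. The cause of these shifts was not tested. With the replicate block, 18 members passed for LPS with PGE2 at 4 h against 13 without it and 1 for LPS with ISO at 1 h against 0, and no other count changed.

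Leaving out 1 set in turn gave 0 to 14 for LPS at 1 h, 0 to 0 for ISO at 1 h, 0 to 2 for LPS with ISO at 1 h, 0 to 1 for LPS at 2 h, 0 to 5 for LPS at 4 h, 0 to 8 for LPS with ISO at 4 h, 3 to 13 for LPS with PGE2 at 4 h and 0 to 6 between times. Ndufa9 at 1 h of LPS ran from −0.63 to 0.023, the latter without set 1 and not past the threshold. The combinations minus LPS had 0 members in every alternative run. Signal over background is unknown here, so its part was not tested.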
